A study of Solanum lycopersicum with 36 samples.

Results

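The genes described here are 6 regulators of jasmonate perception and transcription in tomato leaves. They are COI1 (Solyc05g052620), MYC2 (Solyc08g076930.1), MED25 (Solyc12g070100), MTB1 (Solyc01g096050), MTB2 (Solyc05g050560.1) and MTB3 (Solyc06g083980). They were chosen by identifier for their role and not by a rule on measured values, though with earlier results of these data known. Each identifier matched 1 of the 29285 genes in the deposited table. The names came with the identifiers, and neither the deposited table nor the reference gene table used here pairs them.

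Leaves of the dwarf tomato cultivar Micro-Tom were sampled at 0, 3 and 24 h, and poly(A) RNA was sequenced from 36 libraries in 12 groups of 3. One experiment held the line SGT2ox and its own wild type, and the second, run independently, held the line SGT1ami with a wild type of its own. Sterol glycosyltransferases, to which both targeted genes belong, add a sugar to sterols of the membrane. SGT2ox is read here as an overexpressor of SGT2 and SGT1ami as a line with an artificial microRNA against SGT1. The promoters of both transgenes, and whether a line was 1 transformation event, are unknown from the sources used here. Plants were about a month old and were raised at 25 °C by day and 22 °C by night with 16 h of light. Part of them was moved to 4 °C and part was not, per the labels' protocols, but the label of a library gives its time and not its temperature. No library is labelled as an untreated control of the same hour, so temperature, time of day and time since the start cannot be told apart, and differences from 0 h are named changes with time, whatever set them.

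Jasmonate signalling turns on genes of wound, pathogen and stress defence. The hormone, as its isoleucine conjugate, is bound by the F-box protein COI1 together with a JAZ repressor, which is then marked for breakdown. This frees MYC2, a transcription factor that stands at the top of the jasmonate response and recruits MED25, a subunit of the Mediator complex that links it to RNA polymerase. MTB1, MTB2 and MTB3 are bHLH proteins related to MYC2 that lack its contact with MED25. In tomato MYC2 induces them, and they disturb the complex of MYC2 with MED25 and compete with MYC2 for its binding sites, which ends the response.

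The libraries held 36602841 to 43742623 reads, and the 6 genes lay between 494 and 8054 reads in every library. Counting error alone, if each read were independent, would give a coefficient of variation of 1.12% to 4.37% at these depths. The spread of the 3 libraries was at or below this error in 25 of the 72 gene and group pairs. If both mates of a pair were counted, the error would be larger, and this range and the 25 would be too low. The targeted genes were looked up first, by identifiers noted from published tomato work that no table used here pairs with names. Solyc09g061860, noted for SGT2, was 26.8-fold, 33.3-fold and 32.1-fold higher in SGT2ox than in its wild type at 0, 3 and 24 h. Solyc06g007980, noted for SGT1, was 3.22-fold and 2.51-fold lower in SGT1ami at 0 and 3 h, but 1.08-fold lower at 24 h (6173 ± 51.3 against 6685 ± 214 normalised counts, mean ± SD, n = 3). The 24 h libraries of this line thus lacked most of the reduction seen at 0 and 3 h, though they did not overlap those of the wild type. This puts their label in doubt, and the reason was not tested. Every value drawn from them below is named as coming from the libraries labelled SGT1ami at 24 h. Values are normalised counts, in which each library's reads were divided by its own size factor. They are not divided by gene length, so levels are compared within a gene and never between genes. A fold is the ratio of group means. A log2 fold change, its SE and its adjusted p come from limma on log2(normalised count + 1), fitted on the 18 libraries of an experiment and adjusted over all its tested genes by the Benjamini-Hochberg method, and a gene is said to rise, fall or differ where the adjusted p was under 0.05. The labels call the triplicates biologically independent.

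COI1, the jasmonate co-receptor, peaked at 3 h. Each of the 12 libraries of 3 h (2873 to 4063 normalised counts) lay above each of the 24 libraries of the other times (1174 to 2093). How many of all tested genes part the times in this way was not counted, so this is a description only. COI1 held 1534, 1659.8 and 1627 normalised counts in the wild type for SGT2ox at 0 h, 4026, 4033 and 4063 at 3 h and 1682, 1586 and 1634 at 24 h. COI1 held 1600.0, 1605 and 1581 normalised counts in SGT2ox at 0 h, 3797, 3905 and 3807 at 3 h and 1411, 1304 and 1486 at 24 h. Its 3 h libraries in this experiment were the highest of all 36. COI1 held 2089, 2042 and 1959 normalised counts in the wild type for SGT1ami at 0 h, 3053, 2992 and 3136 at 3 h and 1449, 1365 and 1384 at 24 h. COI1 held 2075, 2093 and 2089.9 normalised counts in SGT1ami at 0 h, 2934, 2997 and 2873 at 3 h and 1174, 1202 and 1182 in the libraries labelled SGT1ami at 24 h. At 3 h the rise was 2.51-fold in the wild type for SGT2ox, with a log2 fold change of 1.33 (SE 0.046, adjusted p = 2.2e-19), and 2.4-fold in SGT2ox, 1.27 (SE 0.046, adjusted p = 7.2e-19). It was smaller in the SGT1ami experiment, 1.51-fold in the wild type, 0.59 (SE 0.038, adjusted p = 6.0e-14), and 1.41-fold in SGT1ami, 0.49 (SE 0.038, adjusted p = 3.9e-12). By 24 h COI1 in the wild type for SGT2ox had no difference from 0 h that passed the test. The libraries of both times overlapped and the change was 0.025 (95% interval -0.070 to 0.12, adjusted p = 0.63). In the other sets it ended below the start, 1.14-fold lower in SGT2ox, -0.19 (SE 0.046, adjusted p = 5.3e-04), 1.45-fold lower in the wild type for SGT1ami, -0.54 (SE 0.038, adjusted p = 2.2e-13), and 1.76-fold lower in the libraries labelled SGT1ami at 24 h, -0.81 (SE 0.038, adjusted p = 1.4e-17). Each comparison with 0 h in a genotype uses the same 0 h libraries. Leaves are mixed tissue, and in such bulk samples fewer cells of a type and less RNA per cell cannot be told apart. When library totals replaced the size factors, the rises at 3 h were 0.85, 0.92, 0.37 and 0.29 in the same order, and the wild type for SGT2ox fell below its start at 24 h too (-0.24, adjusted p = 4.0e-05), as the falls of the other 3 sets grew to -0.39, -1.16 and -1.35. That scaling also moved the median of all genes, as given below, and values under it carry this shift. TMM scaling gave -0.062 and -0.29 at 24 h in the wild type for SGT2ox and in SGT2ox, and without the replicate 1 library of that wild type at 0 h its value was -0.0085, none of them a new or a lost call.

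MYC2, the transcription factor freed by the breakdown of JAZ proteins, was likewise highest at 3 h in every set. Each of the 12 libraries of 3 h (6106 to 7794 normalised counts) lay above each of the 24 others (2219 to 3647), a parting not counted over all genes. MYC2 held 2561, 2687 and 2681 normalised counts in the wild type for SGT2ox at 0 h, 6106, 6209 and 6541 at 3 h and 2253, 2249 and 2272 at 24 h. MYC2 held 2219, 2285 and 2259 normalised counts in SGT2ox at 0 h, 6457, 6378 and 6522 at 3 h and 2669, 2749 and 2783 at 24 h. Both genotypes roughly met at 3 h, with overlapping libraries, from different starts. MYC2 held 3581, 3359 and 3419.9 normalised counts in the wild type for SGT1ami at 0 h, 7669, 7794 and 7710.1 at 3 h and 3541, 3574 and 3647 at 24 h. MYC2 held 3087, 3153 and 3128 normalised counts in SGT1ami at 0 h, 6603, 6502 and 6390.4 at 3 h and 3298, 3194 and 3188 in the libraries labelled SGT1ami at 24 h. The wild type of this experiment held the highest 3 h values of all sets. MYC2 rose 2.38-fold to 3 h in the wild type for SGT2ox, with a log2 fold change of 1.25 (SE 0.037, adjusted p = 9.0e-21), and 2.86-fold in SGT2ox, 1.52 (SE 0.037, adjusted p = 1.3e-22). The rises were 2.24-fold in the wild type for SGT1ami, 1.16 (SE 0.031, adjusted p = 7.0e-23), and 2.08-fold in SGT1ami, 1.06 (SE 0.031, adjusted p = 7.7e-22). From 3 h to 24 h it fell by 1.48, 1.24, 1.11 and 1.01 on the log2 scale in the same order, the last in the libraries labelled SGT1ami at 24 h. Against 0 h it ended lower in the wild type for SGT2ox, -0.23 (SE 0.037, adjusted p = 4.8e-06), and higher in SGT2ox, 0.28 (SE 0.037, adjusted p = 1.8e-07). In the SGT1ami experiment the net change to 24 h did not pass the test, 0.055 in the wild type (95% interval -0.0073 to 0.12, adjusted p = 0.096) and 0.047 in the labelled libraries (95% interval -0.015 to 0.11, adjusted p = 0.15). The peak at 3 h held under library totals (0.77, 1.18, 0.94 and 0.86), but the net change to 24 h rested on the scaling. With library totals it became -0.49 in the wild type for SGT2ox, 0.074 in SGT2ox (adjusted p = 0.066), and a fall in the SGT1ami experiment (-0.57 and -0.49). Relative to the median of all genes under that scaling, these changes were -0.21, 0.30, 0.021 and 0.025. TMM scaling gave 0.18 in SGT2ox. Without replicate 1 of the wild type for SGT1ami at 0 h, that wild type's change passed the test at 0.082, adjusted p = 0.025.

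**Figure D1:**
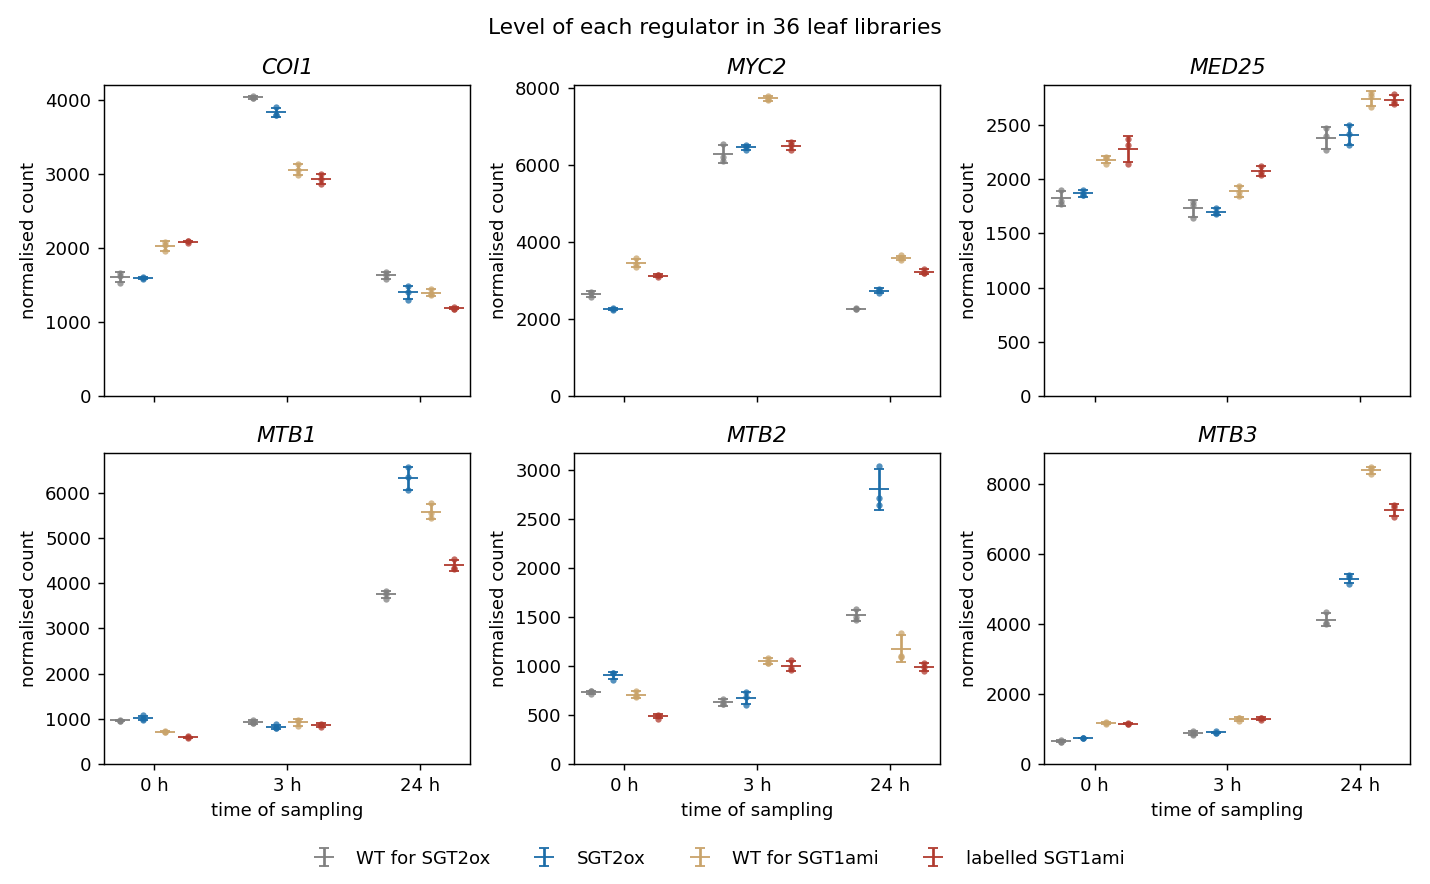
Normalised count (vertical axis, linear from 0) of each of the 6 genes at 0, 3 and 24 h in the 4 genotype sets, with points for the 3 libraries and bars for mean ± SD. COI1 and MYC2 stand highest at 3 h, with 3 h libraries from 2873 and from 6106 upward, and MTB1 and MTB3 at 24 h, from 3655 and from 4009 upward.

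MED25, the Mediator subunit through which MYC2 acts, moved least of the 6 genes. Its highest group mean was 1.61 times its lowest, against 3.41 to 12.9 times for the other 5. MED25 held 1899.9, 1771 and 1803 normalised counts in the wild type for SGT2ox at 0 h, 1639, 1767 and 1787 at 3 h and 2396, 2477 and 2268 at 24 h. MED25 held 1903, 1853 and 1852 normalised counts in SGT2ox at 0 h, 1736, 1685 and 1678 at 3 h and 2420.4, 2496 and 2314 at 24 h. MED25 held 2142, 2209 and 2193 normalised counts in the wild type for SGT1ami at 0 h, 1942, 1842 and 1886 at 3 h and 2797, 2767 and 2669 at 24 h. In these 3 sets, and in the SGT1ami set given next, the lowest mean was at 3 h and the highest at 24 h. MED25 held 2376, 2139.9 and 2320.1 normalised counts in SGT1ami at 0 h, 2063, 2036 and 2122 at 3 h and 2694, 2712 and 2787 in the libraries labelled SGT1ami at 24 h. At 3 h it was 1.1-fold lower than at 0 h in SGT2ox, -0.14 (SE 0.047, adjusted p = 0.013), 1.15-fold lower in the wild type for SGT1ami, -0.21 (SE 0.039, adjusted p = 4.4e-05), and 1.1-fold lower in SGT1ami, -0.13 (SE 0.039, adjusted p = 0.0041). In the wild type for SGT2ox the libraries overlapped and the change was -0.076 (95% interval -0.17 to 0.021, adjusted p = 0.16), a value that passed the test with TMM scaling (-0.12, adjusted p = 0.033) and with edgeR on the recovered reads (-0.11, adjusted p = 0.043). At 24 h it was 1.3-fold and 1.29-fold higher than at 0 h in the wild type and line of the SGT2ox experiment, with log2 fold changes of 0.38 (SE 0.047, adjusted p = 4.1e-08) and 0.37 (SE 0.047, adjusted p = 8.5e-08). The rises were 1.26-fold in the wild type for SGT1ami, 0.33 (SE 0.039, adjusted p = 1.3e-08), and 1.2-fold in the libraries labelled SGT1ami at 24 h, 0.26 (SE 0.039, adjusted p = 7.7e-07). Changes of this size depend on the scaling. Library totals gave -0.56, -0.48, -0.43 and -0.33 at 3 h, and at 24 h 0.12 and 0.16 in the SGT2ox experiment but -0.29 and -0.27 in the SGT1ami experiment.

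The 3 MTB genes, the bHLH partners that end the MYC2 response in tomato, were highest at 24 h with 1 exception, MTB2 in the SGT1ami set, whose 3 h and 24 h levels overlapped. MTB1 gave the clearest late rise together with MTB3. Each of the 12 libraries of 24 h (3655 to 6558 normalised counts) lay above each of the 24 others (583 to 1076). The share of all tested genes with such a parting at 24 h was not counted. MTB1 held 980.3, 955 and 955 normalised counts in the wild type for SGT2ox at 0 h, 909, 979 and 912 at 3 h and 3655, 3760.0 and 3828 at 24 h. MTB1 held 993, 1076 and 984 normalised counts in SGT2ox at 0 h, 802, 874 and 797 at 3 h and 6349, 6048 and 6558 at 24 h. SGT2ox reached the highest level of all sets. MTB1 held 724, 716 and 714 normalised counts in the wild type for SGT1ami at 0 h, 838, 978 and 957 at 3 h and 5772, 5435 and 5538 at 24 h. MTB1 held 609, 583 and 589 normalised counts in SGT1ami at 0 h, 874, 889.6 and 812 at 3 h and 4309, 4521 and 4334 in the libraries labelled SGT1ami at 24 h. Over 24 h MTB1 rose 3.89-fold in the wild type for SGT2ox, with a log2 fold change of 1.96 (SE 0.051, adjusted p = 1.7e-22), 6.21-fold in SGT2ox, 2.63 (SE 0.051, adjusted p = 1.9e-25), 7.77-fold in the wild type for SGT1ami, 2.96 (SE 0.051, adjusted p = 5.2e-28), and 7.39-fold in the labelled SGT1ami libraries of 24 h, 2.88 (SE 0.051, adjusted p = 1.1e-27). At 3 h, when MYC2 stood highest, the sets went different ways. MTB1 was lower than at 0 h in SGT2ox, -0.30 (SE 0.051, adjusted p = 8.4e-06), did not pass the test in its wild type, -0.046 (95% interval -0.15 to 0.058, adjusted p = 0.44), and was higher in the wild type for SGT1ami, 0.36 (SE 0.051, adjusted p = 5.0e-07), and in SGT1ami, 0.53 (SE 0.051, adjusted p = 4.1e-10). With library totals the rises to 24 h were 1.69, 2.43, 2.33 and 2.35, and the values at 3 h -0.53, -0.65, 0.14 and 0.33, the first of them now past the test (adjusted p = 1.2e-09).

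MTB3 showed the same late rise. Each of its 12 libraries of 24 h (4009 to 8473 normalised counts) lay above each of the 24 others (631 to 1321), again a parting not counted over all genes. MTB3 held 643, 676 and 631 normalised counts in the wild type for SGT2ox at 0 h, 865, 936 and 827 at 3 h and 4331, 4009 and 4037 at 24 h. MTB3 held 736, 753 and 739 normalised counts in SGT2ox at 0 h, 879, 929 and 897 at 3 h and 5144, 5333 and 5389 at 24 h. MTB3 held 1195, 1171 and 1155 normalised counts in the wild type for SGT1ami at 0 h, 1226, 1319 and 1308 at 3 h and 8473, 8415 and 8269.7 at 24 h. Of all sets this one was the highest at 24 h. MTB3 held 1130.3, 1156 and 1160.4 normalised counts in SGT1ami at 0 h, 1316, 1321 and 1253 at 3 h and 7342, 7055 and 7384 in the libraries labelled SGT1ami at 24 h. The rise to 24 h was 6.35-fold in the wild type for SGT2ox, with a log2 fold change of 2.66 (SE 0.051, adjusted p = 2.3e-25), 7.12-fold in SGT2ox, 2.83 (SE 0.051, adjusted p = 4.7e-26), 7.14-fold in the wild type for SGT1ami, 2.84 (SE 0.037, adjusted p = 8.6e-31), and 6.32-fold to the libraries labelled SGT1ami at 24 h, 2.66 (SE 0.037, adjusted p = 4.5e-30). At 3 h it was slightly above 0 h, 0.43 (SE 0.051, adjusted p = 3.5e-08) and 0.28 (SE 0.051, adjusted p = 2.9e-05) in the wild type and line of the SGT2ox experiment and 0.13 (SE 0.037, adjusted p = 0.0037) and 0.17 (SE 0.037, adjusted p = 1.9e-04) in those of the SGT1ami experiment. These small early rises rested on the scaling, since library totals turned them into -0.051, -0.062, -0.094 and -0.025, of which the value in the wild type for SGT1ami was a fall (adjusted p = 0.027). Relative to the median of all genes under library totals, these values were 0.40, 0.27, 0.15 and 0.19. The rises to 24 h were 2.40, 2.63, 2.21 and 2.12 with that scaling.

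MTB2 rose less by 24 h, and at 3 h it moved in opposite directions in the 2 experiments. MTB2 held 718, 745 and 742 normalised counts in the wild type for SGT2ox at 0 h, 610.4, 666 and 609.7 at 3 h and 1581, 1506 and 1468 at 24 h. MTB2 held 863, 928 and 927 normalised counts in SGT2ox at 0 h, 605, 733 and 689 at 3 h and 2649, 2716 and 3048 at 24 h. In this experiment it dipped at 3 h and climbed by 24 h. MTB2 held 693, 689 and 746 normalised counts in the wild type for SGT1ami at 0 h, 1031, 1085 and 1031 at 3 h and 1107, 1093 and 1336 at 24 h. MTB2 held 464, 494 and 505 normalised counts in SGT1ami at 0 h, 958, 1061 and 986 at 3 h and 955, 993 and 1036 in the libraries labelled SGT1ami at 24 h. Here it climbed by 3 h and then stayed near that level. In the wild type for SGT2ox MTB2 was 1.17-fold lower at 3 h than at 0 h, -0.23 (SE 0.066, adjusted p = 0.0041), and 2.07-fold higher at 24 h, 1.04 (SE 0.066, adjusted p = 8.4e-14). In SGT2ox it was 1.34-fold lower at 3 h, -0.43 (SE 0.066, adjusted p = 3.1e-06), and 3.1-fold higher at 24 h, 1.63 (SE 0.066, adjusted p = 4.0e-18). In the wild type for SGT1ami it was 1.48-fold higher at 3 h, 0.56 (SE 0.066, adjusted p = 1.8e-08), and 1.66-fold higher at 24 h, 0.73 (SE 0.066, adjusted p = 5.6e-11). In SGT1ami it was 2.05-fold higher at 3 h, 1.04 (SE 0.066, adjusted p = 6.4e-14), and 2.04-fold higher in the libraries labelled SGT1ami at 24 h, 1.03 (SE 0.066, adjusted p = 2.8e-14). From 3 h to 24 h the wild type for SGT1ami rose by 0.16 (SE 0.066, adjusted p = 0.026), a call that rested on replicate 3 at 24 h, the highest of the 3. Without that library the value was 0.069, adjusted p = 0.31, without replicate 1 or replicate 3 of 3 h it was 0.15, adjusted p = 0.069 and 0.15, adjusted p = 0.07, and it was lost with TMM scaling (0.072, adjusted p = 0.31), edgeR (0.074, adjusted p = 0.27) and DESeq2 (0.13, adjusted p = 0.073) and turned with library totals (-0.24). The libraries labelled SGT1ami at 24 h overlapped those of 3 h (-0.0096, 95% interval -0.14 to 0.13, adjusted p = 0.9). With library totals the changes to 3 h were -0.71, -0.77, 0.34 and 0.84 and those to 24 h 0.78, 1.42, 0.10 and 0.49, of which that in the wild type for SGT1ami no longer passed the test (adjusted p = 0.15), and the value between 3 h and the labelled 24 h libraries became -0.34 (adjusted p = 2.6e-05).

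**Figure D2:**
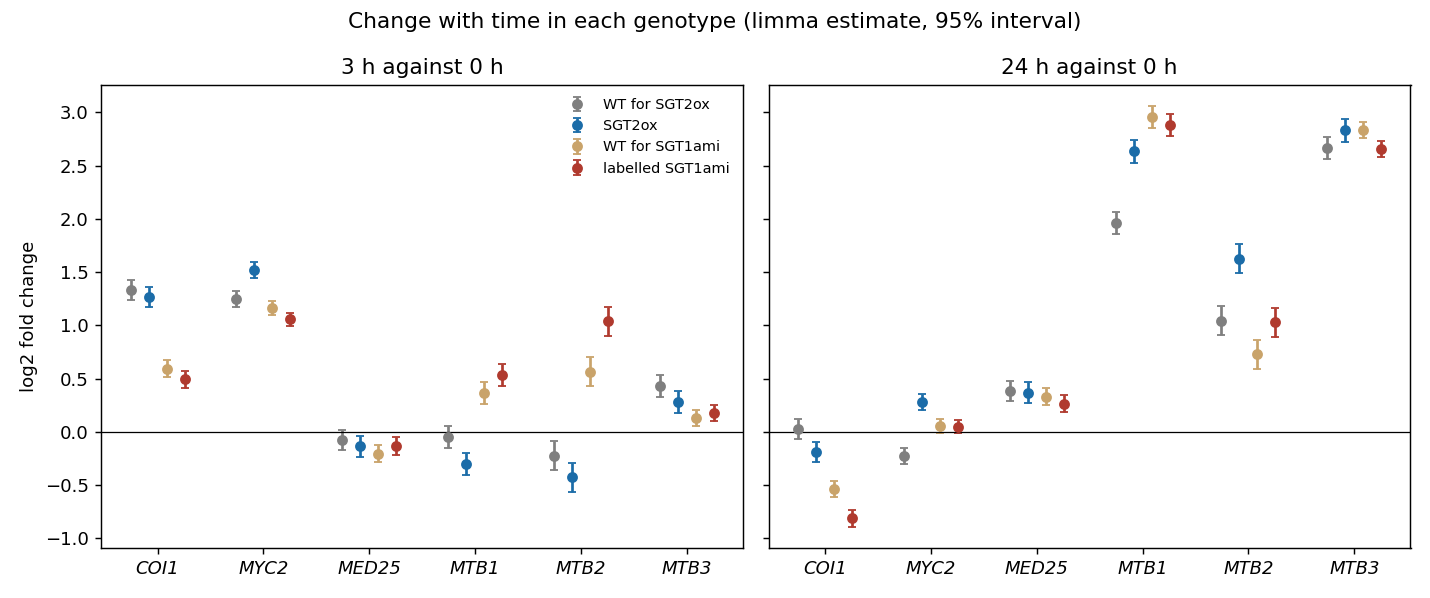
Log2 fold change at 3 h and at 24 h against 0 h (vertical axis) for the 6 genes in the 4 genotype sets, as limma estimates with 95% intervals. At 3 h MYC2 lies between 1.06 and 1.52 and at 24 h MTB3 lies between 2.66 and 2.84.

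How many of the 6 changed has to be read against how many genes changed at all, since most of the transcriptome passed the test with time. Between 0 h and 3 h the test was passed by 4 of 6 (3 higher, 1 lower) where 66.3% of all tested genes did in the wild type for SGT2ox, 6 of 6 (3 higher, 3 lower) where 64.8% of all tested genes did in SGT2ox, 6 of 6 (5 higher, 1 lower) where 62.7% of all tested genes did in the wild type for SGT1ami, and 6 of 6 (5 higher, 1 lower) where 62.2% of all tested genes did in SGT1ami. Between 0 h and 24 h it was passed by 5 of 6 (4 higher, 1 lower) where 79.1% of all tested genes did, 6 of 6 (5 higher, 1 lower) where 81.1% of all tested genes did, 5 of 6 (4 higher, 1 lower) where 82.4% of all tested genes did, and 5 of 6 (4 higher, 1 lower) where 82.8% of all tested genes did in the same order, the last for the libraries labelled SGT1ami at 24 h. Between 3 h and 24 h it was passed by 6 of 6 (4 higher, 2 lower) where 79.8% of all tested genes did, 6 of 6 (4 higher, 2 lower) where 81.3% of all tested genes did, 6 of 6 (4 higher, 2 lower) where 81.4% of all tested genes did, and 5 of 6 (3 higher, 2 lower) where 82.3% of all tested genes did. The direction of calls depended on the scaling. Of all genes called, 52.8%, 51.3%, 49.4% and 49% were higher at 3 h than at 0 h, 49.9%, 49.7%, 51.7% and 51.5% at 24 h than at 0 h and 48.9%, 49.3%, 52.3% and 51.2% at 24 h than at 3 h, in the same order of sets. With library totals these shares were 22.4%, 26.5%, 30.6% and 32.2%, 37.8%, 41.3%, 29.9% and 31.8% and 58%, 54.5%, 36.6% and 38.2%. The members called were then 2 higher and 3 lower, 2 higher and 3 lower, 4 higher and 2 lower, and 4 higher and 1 lower between 0 h and 3 h. They were 4 higher and 2 lower, 4 higher and 1 lower, 2 higher and 3 lower, and 3 higher and 3 lower between 0 h and 24 h, and 4 higher and 2 lower, 4 higher and 2 lower, 3 higher and 3 lower, and 2 higher and 3 lower between 3 h and 24 h. The shares of members called are near the background, so the number of changed members is no result. The size and the time of each gene's change are given as a description. The median absolute log2 fold change of the 6 was 0.33, 0.36, 0.46 and 0.51 at 3 h, against 0.47, 0.46, 0.39 and 0.38 over all tested genes, and 0.71, 1.00, 0.63 and 0.92 at 24 h, against 0.75, 0.83, 0.86 and 0.85. Of all tested genes 88.7% and 89.6% changed less than MTB3 over 24 h in the wild types for SGT1ami and SGT2ox, and 86.3% and 82.1% changed less than MYC2 to 3 h. These are among the larger changes of the 6. In the same wild types 34.6% and 1.97% changed less than COI1 over 24 h, and 22.6% and 29.3% less than MED25. To 3 h 47.2% and 5.85% changed less than MTB1. Library totals moved the median of all genes by -0.45, -0.33, -0.24 and -0.22 on the log2 scale at 3 h and by -0.28, -0.22, -0.59 and -0.51 at 24 h, and the values given for that scaling carry these shifts.

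The ratio of 2 genes inside a library does not depend on the scaling between libraries, so each gene was also set against MYC2. The level of such a ratio holds the lengths of both genes and is read only across samples. All 3 MTB genes lost ground to MYC2 at 3 h and gained on it by 24 h, with 1 exception at 3 h. MYC2 itself rose at 3 h by 1.25 and 1.52 in the wild type and line of the SGT2ox experiment. In those of the SGT1ami experiment it rose by 1.16 and 1.06. The median change of all tested genes was 0.014, 0, -0.022 and -0.017 in the same order. A gene that stayed level would thus also lose ground to MYC2 at 3 h, and the share of all genes that did was not counted. The log2 ratio of MTB1 to MYC2 was -2.43 to -1.09 in the 12 libraries of 0 h, -3.19 to -2.66 at 3 h and 0.39 to 1.25 at 24 h. That of MTB3 was -2.08 to -1.43, -2.98 to -2.30 and 0.83 to 1.26 at these times. The 3 ranges did not overlap for either gene, in whichever genotype, and how many other genes show this was not counted. From 0 h to 3 h the mean ratio of MTB1 to MYC2 changed by -1.30 in the wild type for SGT2ox, -1.82 in SGT2ox, -0.80 in the wild type for SGT1ami and -0.53 in SGT1ami, and from 0 h to 24 h by 2.19, 2.36, 2.90 and 2.84. For MTB2 the 3 h values changed by -1.48, -1.94, -0.60 and -0.021, and the 24 h values by 1.27, 1.35, 0.67 and 0.98. SGT1ami at 3 h was the set whose libraries overlapped those of 0 h. The ratio of MED25 to MYC2 was lower at 3 h in every set, with changes of -1.33, -1.65, -1.37 and -1.19. At 24 h it was higher than at 0 h, with changes of 0.61, 0.088, 0.28 and 0.22, and in SGT2ox the libraries overlapped those of 0 h. The ratio of COI1 to MYC2 changed by 0.081, -0.25, -0.57 and -0.57 at 3 h and 0.25, -0.47, -0.59 and -0.86 at 24 h. These ratios were not tested and are given as a description.

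**Figure D3:**
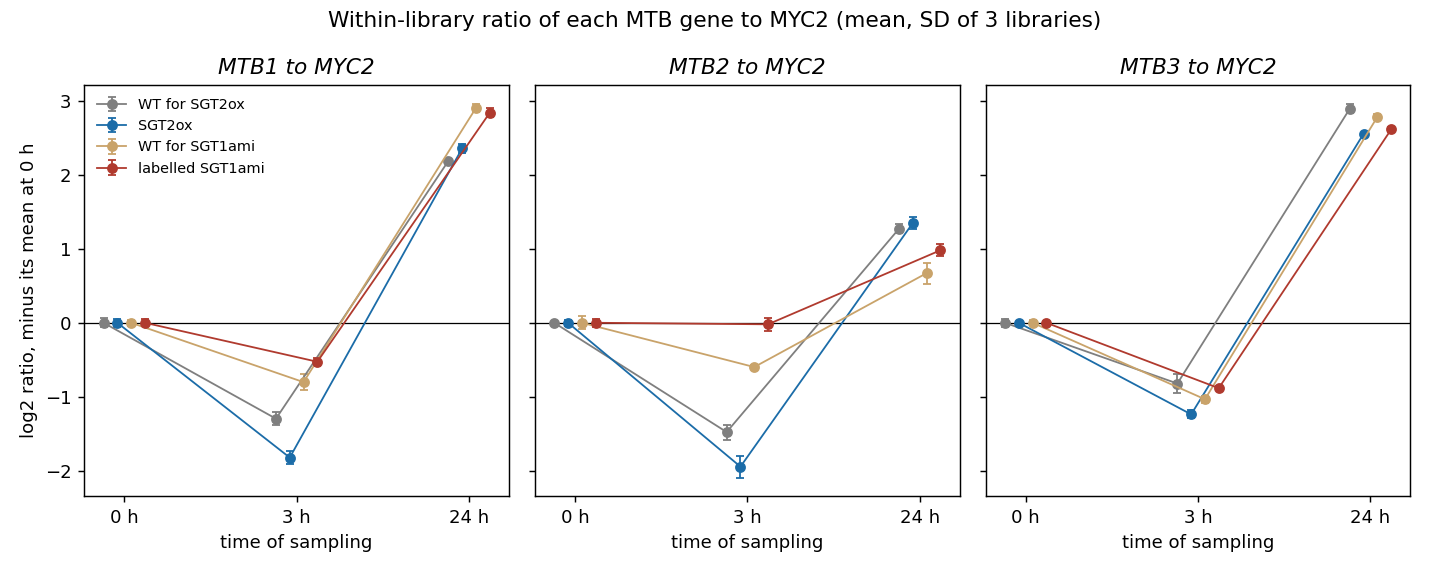
Log2 ratio of each MTB gene to MYC2 within a library, minus its mean at 0 h (vertical axis), at 0, 3 and 24 h in the 4 genotype sets, as mean and SD of 3 libraries, the last of the SGT1ami set from the labelled 24 h libraries. For MTB1 the plotted value lies between -1.82 and -0.53 at 3 h and between 2.19 and 2.90 at 24 h.

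SGT2ox differed from its wild type in more of the 6 genes at 24 h than at 0 or 3 h. At 24 h the MTB genes and MYC2 were higher in the line and COI1 was lower. At that time MTB1 held 6318 ± 257 against 3748 ± 87.4 normalised counts (line against wild type, mean ± SD, n = 3), a 1.69-fold difference with a log2 fold change of 0.75 (SE 0.051, adjusted p = 7.5e-12). MTB2 held 2804 ± 214 against 1518 ± 57.9, 1.85-fold higher, 0.88 (SE 0.066, adjusted p = 6.2e-11). MTB3 held 5289 ± 129 against 4126 ± 178, 1.28-fold higher, 0.36 (SE 0.051, adjusted p = 3.6e-06). In all 3 the line's libraries lay above those of the wild type without overlap. The share of all tested genes without overlap was not counted, so this is given as a description only. MYC2 was 1.21-fold higher, 0.28 (SE 0.037, adjusted p = 1.7e-06), and COI1 1.17-fold lower, -0.22 (SE 0.046, adjusted p = 4.0e-04). MED25 did not pass the test, 0.018 (95% interval -0.079 to 0.12, adjusted p = 0.82). At 24 h 5 of the 6 passed, where 32.1% of all tested genes did, with a median absolute log2 fold change of 0.32 against 0.19 over all genes.

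Before the time course began the line already differed in 3 of the 6 genes, where 25.5% of all tested genes passed. At 0 h MYC2 was 1.17-fold lower in SGT2ox, -0.23 (SE 0.037, adjusted p = 3.5e-05), MTB2 1.23-fold higher, 0.30 (SE 0.066, adjusted p = 0.0012), and MTB3 1.14-fold higher, 0.19 (SE 0.051, adjusted p = 0.0061). COI1, MED25 and MTB1 gave -0.0099, 0.036 and 0.078, with adjusted p-values of 0.91, 0.65 and 0.29. The MTB3 difference did not pass with library totals (0.11, adjusted p = 0.13). At 0 h 54.8% of the genes called were higher, or 30.7% with library totals, where the members called were 1 higher and 1 lower. At 3 h 1 of 6 passed, where 17.4% of all tested genes did. This was MTB1, 1.13-fold lower in the line, -0.18 (SE 0.051, adjusted p = 0.014). COI1, MYC2, MED25, MTB2 and MTB3 gave -0.075, 0.038, -0.025, 0.10 and 0.043 (adjusted p = 0.3, 0.55, 0.78, 0.34 and 0.64). At 3 h 41.7% of the genes called were higher, or 62.9% with library totals, where the members called were 0 higher and 0 lower. The MTB1 call was lost in a fit restricted to the 6 libraries of that hour (-0.18, adjusted p = 0.064), with library totals (-0.12, adjusted p = 0.11), without replicate 2 of the wild type (-0.14, adjusted p = 0.082) and without replicate 1 or 3 of the line (-0.16, adjusted p = 0.062 and -0.16, adjusted p = 0.065).

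Tests of the difference itself showed where the time course of SGT2ox departed from that of its wild type. From 0 h to 24 h 4 of 6 differed, where 23.3% of all tested genes did. The change was more positive in the line for MTB1, by 0.67 (SE 0.072, adjusted p = 6.3e-08), for MTB2, by 0.58 (SE 0.094, adjusted p = 3.5e-05), and for MYC2, by 0.50 (SE 0.053, adjusted p = 5.1e-08), and more negative for COI1, by -0.21 (SE 0.065, adjusted p = 0.017). The COI1 difference did not pass without replicate 1 of the wild type at 0 h (-0.18, adjusted p = 0.059), without replicate 2 of the line at 24 h (-0.16, adjusted p = 0.064) or with library totals (-0.15, adjusted p = 0.1). MTB3 gave 0.17 (95% interval 0.018 to 0.32, adjusted p = 0.1), which passed with library totals (0.23, adjusted p = 0.028), and MED25 -0.017 (95% interval -0.15 to 0.12, adjusted p = 0.89). From 0 h to 3 h 2 of 6 differed, where 18.1% of all tested genes did. MYC2 rose more in the line, by 0.27 (SE 0.053, adjusted p = 5.7e-04), or 0.41 with library totals, and MTB1 changed more downward, by -0.26 (SE 0.072, adjusted p = 0.012), a call lost with library totals (-0.12, adjusted p = 0.27). To 24 h 43.1% of the genes called were higher, or 58.2% with library totals, where the members called were 4 higher and 0 lower, and to 3 h 38.1% of the genes called were higher, or 74.5% with library totals, where the members called were 1 higher and 0 lower. For MYC2 the line held 2254 ± 33.4 against 2643 ± 70.8 at 0 h and 6453 ± 72.2 against 6285 ± 227 at 3 h, where the libraries overlapped. Inside the libraries the log2 ratio of MTB1 to MYC2 at 24 h was 1.21 ± 0.062 in SGT2ox and 0.73 ± 0.029 in the wild type, that of MTB2 0.034 ± 0.084 and -0.57 ± 0.06, and that of MTB3 0.95 ± 0.005 and 0.87 ± 0.064. The libraries of line and wild type lay apart for the ratios of MTB1 and MTB2. For MTB3 they almost met, with 0.946 as the lowest of the line and 0.943 as the highest of the wild type. The share of all genes whose ratios lie apart was not counted.

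SGT1ami had less MYC2, MTB1 and MTB2 transcript than its wild type at 0 h. MTB2 held 488 ± 21 against 709 ± 31.5 normalised counts, 1.46-fold lower, -0.54 (SE 0.066, adjusted p = 3.7e-07). MTB1 held 594 ± 13.9 against 718 ± 5.3, 1.21-fold lower, -0.27 (SE 0.051, adjusted p = 1.8e-04), and MYC2 3122 ± 33.4 against 3453 ± 115, 1.11-fold lower, -0.14 (SE 0.031, adjusted p = 8.2e-04). These are 3 of 6, where 19.1% of all tested genes passed. COI1, MED25 and MTB3 gave 0.040, 0.061 and -0.031 (adjusted p = 0.56, 0.33 and 0.66). At 3 h 2 of 6 passed, where 28.1% of all tested genes did. MYC2 was 1.19-fold lower in the line, 6499 ± 106 against 7724 ± 63.7, -0.25 (SE 0.031, adjusted p = 3.0e-07). MED25 was 1.1-fold higher, 0.13 (SE 0.039, adjusted p = 0.011), a call lost without replicate 2 of the wild type (0.12, adjusted p = 0.056) or replicate 3 of the line (0.12, adjusted p = 0.056). COI1, MTB1, MTB2 and MTB3 gave -0.060, -0.10, -0.067 and 0.014 (adjusted p = 0.26, 0.13, 0.5 and 0.82), and MTB1 passed without replicate 1 of the wild type (-0.17, adjusted p = 0.0095).

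At 24 h the libraries labelled SGT1ami lay below the wild type in 5 of 6 genes, where 22.1% of all tested genes passed in either direction. MTB1 was 1.27-fold lower, -0.35 (SE 0.051, adjusted p = 9.0e-06), MTB2 1.18-fold lower, -0.24 (SE 0.066, adjusted p = 0.0087), COI1 1.18-fold lower, -0.24 (SE 0.038, adjusted p = 2.6e-05), MTB3 1.16-fold lower, -0.21 (SE 0.037, adjusted p = 1.3e-04), and MYC2 1.11-fold lower, -0.15 (SE 0.031, adjusted p = 4.7e-04). MED25 gave -0.0070 (95% interval -0.088 to 0.074, adjusted p = 0.93). The median of the 6 was -0.22 beside -0.028 over all genes. With library totals COI1, MTB1 and MTB3 still passed (-0.15, -0.26 and -0.12) and MYC2 and MTB2 did not (-0.063, adjusted p = 0.15, and -0.15, adjusted p = 0.11), and MTB2 also did not pass without replicate 3 of the wild type (-0.15, adjusted p = 0.11). In this comparison 31.2% of the genes called were higher, or 68.4% with library totals, where the members called were 0 higher and 3 lower. Because SGT1 itself was near the wild type level in these libraries, their directions carry the doubt on the label.

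By tests of the difference itself, MTB2 rose more from 0 h to 3 h in SGT1ami than in its wild type, by 0.47 (SE 0.093, adjusted p = 3.6e-04). It was the 1 of 6 that passed, where 20.3% of all tested genes did. MTB2 started lower in the line, 488 ± 21 against 709 ± 31.5 at 0 h. By 3 h the libraries overlapped, 1002 ± 53.2 against 1049 ± 31.2. For MYC2 and MTB1 the difference of changes to 3 h was -0.10 (95% interval -0.19 to -0.016, adjusted p = 0.093) and 0.17 (95% interval 0.023 to 0.32, adjusted p = 0.1). MYC2 passed with DESeq2 on the recovered reads (-0.12, adjusted p = 0.025) and without replicate 1 of the wild type at 0 h (-0.13, adjusted p = 0.038), and MTB1 without replicate 2 of the wild type or replicate 3 of the line at 3 h (0.21, adjusted p = 0.041 and 0.21, adjusted p = 0.047). From 0 h to the libraries labelled SGT1ami at 24 h 3 of 6 differed, where 23.5% of all tested genes did. These were COI1, -0.28 (SE 0.053, adjusted p = 2.5e-04), MTB3, -0.18 (SE 0.053, adjusted p = 0.014), and MTB2, 0.30 (SE 0.093, adjusted p = 0.018). MTB3 did not pass with library totals (-0.087, adjusted p = 0.26), and COI1 was -0.19 there. For these changes 34.5% of the genes called were higher, or 59.6% with library totals, where the members called were 1 higher and 1 lower. MTB2 did not pass without replicate 3 of the wild type at 0 h (0.26, adjusted p = 0.057), replicate 1 or 2 of the wild type at 24 h (0.26, adjusted p = 0.057 and 0.25, adjusted p = 0.063) or replicate 1 of the line at 0 h (0.27, adjusted p = 0.0504). Leaving the 3 labelled 24 h libraries out of the fit changed no call of the 6 genes in any comparison that does not use them.

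**Figure D4:**
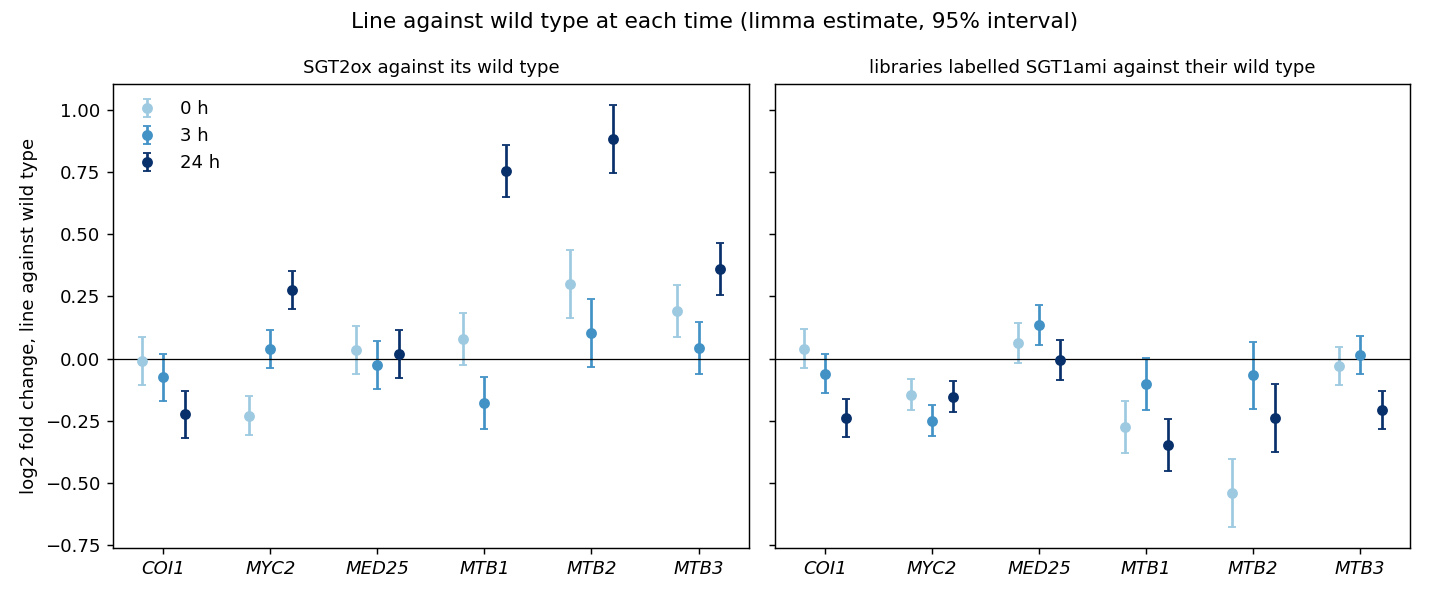
Log2 fold change of each line against its own wild type (vertical axis) at 0, 3 and 24 h for the 6 genes, as limma estimates with 95% intervals, with the 24 h points of the right panel from the libraries labelled SGT1ami. In SGT2ox MTB1, MTB2 and MTB3 stand at 0.75, 0.88 and 0.36 at 24 h, and in the right panel MTB2 stands at -0.54 at 0 h.

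The wild types of the 2 experiments differed from each other in most of the 6 genes. All 36 libraries went into the fit that compared them, and in it experiment and any difference in growth, sampling or sequencing cannot be told apart. At 0 h MTB3 was 1.81-fold higher in the wild type for SGT1ami, 1174 ± 20.2 against 650.0 ± 23, 0.85 (SE 0.043, adjusted p = 1.0e-20), at 3 h 1.47-fold higher, 0.55 (SE 0.043, adjusted p = 9.3e-15), and at 24 h 2.03-fold higher, 1.02 (SE 0.043, adjusted p = 1.7e-23). MYC2 was 1.31-fold, 1.23-fold and 1.59-fold higher there at 0, 3 and 24 h, 0.39 (SE 0.032, adjusted p = 6.9e-14), 0.30 (SE 0.032, adjusted p = 8.4e-11) and 0.67 (SE 0.032, adjusted p = 1.5e-21). COI1 was 1.26-fold higher at 0 h, 0.34 (SE 0.04, adjusted p = 1.3e-09), but 1.32-fold and 1.17-fold lower at 3 and 24 h, -0.40 (SE 0.04, adjusted p = 1.6e-11) and -0.22 (SE 0.04, adjusted p = 5.2e-06). MTB2 was 1.67-fold higher at 3 h, 0.74 (SE 0.068, adjusted p = 1.2e-12), and 1.29-fold lower at 24 h, -0.37 (SE 0.068, adjusted p = 6.3e-06). MTB1 was 1.34-fold lower at 0 h, -0.42 (SE 0.05, adjusted p = 1.3e-09), and 1.49-fold higher at 24 h, 0.57 (SE 0.05, adjusted p = 3.2e-13). MTB2 at 0 h and MTB1 at 3 h gave -0.052 and -0.017 (adjusted p = 0.51 and 0.79). MED25 was 1.2-fold, 1.09-fold and 1.15-fold higher, 0.26 (SE 0.042, adjusted p = 1.1e-06), 0.13 (SE 0.042, adjusted p = 0.0081) and 0.21 (SE 0.042, adjusted p = 4.0e-05). The 3 h call of MED25 was lost without replicate 1 of the wild type for SGT2ox (0.089, adjusted p = 0.09), and its 24 h value turned with library totals (-0.13) and was 0.12 with edgeR. In all 5, 5 and 6 of 6 passed at 0, 3 and 24 h, where 66.4%, 63.8% and 71.9% of all tested genes did. At 3 h 50.7% of the genes called were higher, or 71.4% with library totals, where the members called were 5 higher and 1 lower, and at 24 h 55.4% of the genes called were higher, or 34.4% with library totals, where the members called were 3 higher and 3 lower. With library totals the values of COI1 were 0.36, -0.12 and -0.56, those of MYC2 0.41, 0.58 and 0.33, those of MTB3 0.87, 0.83 and 0.69, those of MTB1 -0.40, 0.26 and 0.24, and those of MTB2 -0.030, 1.02 and -0.71.

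The change with time also differed between the wild types in 4 of 6 genes to 3 h, where 52% of all tested genes differed, and in 5 of 6 to 24 h, where 53% did. To 3 h the wild type for SGT1ami changed less upward for COI1, -0.74 (SE 0.057, adjusted p = 1.5e-14), and MTB3, -0.30 (SE 0.061, adjusted p = 5.2e-05), and more upward for MTB2, 0.79 (SE 0.096, adjusted p = 2.8e-09), and MTB1, 0.41 (SE 0.071, adjusted p = 5.9e-06). MYC2 and MED25 gave -0.087 and -0.13 (adjusted p = 0.1 and 0.065), and MED25 passed without replicate 1 of the wild type for SGT2ox at 0 h, of the same at 3 h or of the wild type for SGT1ami at 3 h (-0.16, adjusted p = 0.031, -0.17, adjusted p = 0.019 and -0.15, adjusted p = 0.047). To 24 h it changed more upward for MTB1, 1.00 (SE 0.071, adjusted p = 1.6e-15), MYC2, 0.28 (SE 0.045, adjusted p = 1.1e-06), and MTB3, 0.17 (SE 0.061, adjusted p = 0.016), and less for COI1, -0.56 (SE 0.057, adjusted p = 3.7e-11), and MTB2, -0.32 (SE 0.096, adjusted p = 0.0046). The MTB3 difference to 24 h did not pass with edgeR (0.11, adjusted p = 0.12) or without replicate 2 of the wild type for SGT2ox at 0 h (0.14, adjusted p = 0.056). With library totals the differences to 3 h were -0.48 for COI1, 1.05 for MTB2, 0.66 for MTB1, 0.17 for MYC2 (adjusted p = 0.0016), 0.13 for MED25 (adjusted p = 0.086) and -0.044 for MTB3, whose call was lost (adjusted p = 0.59). Those to 24 h were 0.64 for MTB1, -0.92 for COI1, -0.68 for MTB2 and -0.076 for MYC2 (adjusted p = 0.14). MTB3 to 24 h passed with the opposite sign (-0.19, adjusted p = 0.0094), and MED25, which had not passed with the size factors (-0.052, adjusted p = 0.48), passed at -0.41 (adjusted p = 2.6e-07). To 3 h 43.9% of the genes called were higher, or 67.8% with library totals, where the members called were 3 higher and 1 lower, and to 24 h 51.7% of the genes called were higher, or 24.6% with library totals, where the members called were 1 higher and 4 lower. Library totals put the median of all genes at 0.27 and -0.24 between the wild types at 3 and 24 h and at 0.18 and -0.33 for the changes to these times.

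The order of the 12 group means showed the same division by time. For COI1 the 3 h groups took the top 4 places and the 24 h groups of SGT1ami, its wild type and SGT2ox the lowest 3, and 5 of the 11 neighbours in that order had overlapping libraries. For MYC2 the 3 h groups again took the top 4 places, while 0 h and 24 h groups alternated below them, with 5 overlapping neighbours. For MTB1 and MTB3 the 24 h groups took the top 4 places, each apart from the next, with 4 and 3 overlapping neighbours below. For MTB2 the top place was SGT2ox at 24 h, apart from its wild type at 24 h, which was apart from the wild type for SGT1ami at 24 h, and 5 neighbours overlapped. For MED25 the 24 h groups took the top 4 places. Here 8 of 11 neighbours overlapped, so most neighbouring places in its order cannot be told apart from the spread. The spread within a group was small, with a coefficient of variation of 0.443% to 6.52% for COI1, 0.546% to 3.61% for MYC2, 1.54% to 5.41% for MED25, 0.738% to 8.18% for MTB1, 2.01% to 11.6% for MTB2 and 1.23% to 6.34% for MTB3.

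Other genes had patterns close to each of the 6. In a search of 18403 genes whose mean reached 50 normalised counts, the most alike over the 36 libraries on the log2 scale were Solyc04g064670 (Pearson's r = 0.991) and Solyc02g082760 (r = 0.983) for COI1, Solyc09g091960 (Pearson's r = 0.977) and Solyc09g007810 (r = 0.969) for MYC2 and Solyc04g015690 (Pearson's r = 0.981) and Solyc12g056250 (r = 0.979) for MED25. They were Solyc04g057880 (Pearson's r = 0.99) and Solyc07g063620 (r = 0.99) for MTB1, Solyc07g017600 (Pearson's r = 0.952) and Solyc03g111290 (r = 0.947) for MTB2 and Solyc08g078850 (Pearson's r = 0.996) and Solyc03g117950 (r = 0.996) for MTB3. These identifiers are unnamed in the tables used here. The 36 points of each r fall into the same 12 groups and share library and scaling, so the values describe the pattern and were not tested.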

How the data were processed

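The authors deposited a signal per gene, its count over the library's size factor, for 29285 genes in 36 libraries. STAR, Trimmomatic, DESeq2 and featureCounts are named, without versions, in the submitters' processing notes. No source used here gives the build, annotation or strand setting, and near-identical or overlapping genes could share reads. In each library 100% of the deposited values were whole multiples of the value of 1 read (within 0.01 of a read), with size factors of 0.779 to 1.31, so whole reads were recovered. Of values of 2 to 11 reads 78.8% were even, as counting both mates of a pair would give, so the reads may not be independent and count tests on them may be too sure.

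Genes with at least 10 in at least 3 libraries were tested (22399 in the SGT2ox experiment, 22286 in the SGT1ami experiment, 22945 over both) on log2(value + 1) by limma 3.58.1 under R 4.3.3, its prior variance following the mean. The added 1 understates changes of low genes. All groups of a fit share its spread. Alternatives were other pseudocounts, filters and scalings, fits of only the groups compared, the replicate block, leaving out each library, and edgeR 4.0.16 and DESeq2 1.42.0 on the recovered reads. On the reads alone these count tests called 15204 and 15178 genes at 3 h in the wild type for SGT2ox, where limma called 14841. The reads of all 36 replicate pairs varied more than independent reads would, with a chi-square of 2.65 to 6.19 per gene on average. If both mates of a pair were counted, counting noise alone would give a larger chi-square, and the excess over it would be smaller. All libraries were kept.

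The 6 genes, the rule for alike genes and the tests were chosen with earlier results of these data known. The RefSeq gene table (41476 entries) shared 0 identifiers with the deposited table, so lists of other jasmonate genes and of leaf cell markers could not be applied and are not used here.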

Additional observations from a re-analysis of the deposited data

Results flagged for a closer look

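The change with time differed between sets, by a test of the difference itself, in 19 cases among the 6 genes. All values are differences of log2 fold changes from limma with an adjusted p under 0.05, and their errors and the settings that end a call are given above.

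SGT2ox departed from its wild type for MYC2 (0.27) and MTB1 (-0.26) between 0 h and 3 h. Between 0 h and 24 h it departed for COI1 (-0.21), MYC2 (0.50), MTB1 (0.67) and MTB2 (0.58). The change of MTB1 was thus more negative than in the wild type to 3 h and more positive to 24 h. Of these calls, that to 3 h was lost with library totals (-0.12, adjusted p = 0.27).

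SGT1ami departed from its wild type for MTB2 (0.47) between 0 h and 3 h. The libraries labelled SGT1ami at 24 h departed for COI1 (-0.28), MTB2 (0.30) and MTB3 (-0.18).

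The wild type for SGT1ami departed from the wild type for SGT2ox for COI1 (-0.74), MTB1 (0.41), MTB2 (0.79) and MTB3 (-0.30) to 3 h, and for COI1 (-0.56), MYC2 (0.28), MTB1 (1.00), MTB2 (-0.32) and MTB3 (0.17) to 24 h. These 2 sets differ in experiment and share a genotype label, and the part of the experiment in these differences was not tested.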

How the results depend on the processing

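Of 162 results for the 6 genes, 111 kept direction and call under every alternative run. No total of genes called moved by over 1.5 times in any of the 27 comparisons, but the direction of the calls did, as at 3 h in the wild type for SGT2ox, where 7830 higher and 7011 lower became 3844 higher and 13309 lower with library totals. Pseudocounts of 0.5 and 5, no filter, a mean of at least 50 and the fit without the libraries labelled SGT1ami at 24 h changed no call of the 6 genes where they were run. With the replicate block 162 of 162 kept their call and direction, and MYC2 at 3 h in the wild type for SGT2ox stayed at 1.25. Libraries with the same replicate number did not deviate together over all tested genes (r of -0.045 to 0.022 and -0.033 to 0.022 over 45 pairs in each experiment). The check thus gave no sign that the numbers pair samples. Being taken over all tested genes, it can miss a pairing that touches few of them. Scaling was the choice that moved most: library totals turned 27, ended 11 and added 5 of 162. They moved the median of all genes as given above, and the cause of each single turn was not tested.

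Library totals turned the sign to MTB3 -0.051 for 3 h in the wild type for SGT2ox, COI1 -0.24 for 24 h in the wild type for SGT2ox, MTB3 -0.062 for 3 h in SGT2ox, MTB1 -0.0044 and MED25 -0.047 for SGT2ox against wild type at 0 h, MED25 0.031 for SGT2ox against wild type at 3 h, MED25 -0.0014 for SGT2ox against wild type at 24 h, COI1 0.073 and MED25 0.077 for the SGT2ox difference of changes to 3 h, MED25 0.045 for the SGT2ox difference of changes to 24 h, MTB3 -0.094 for 3 h in the wild type for SGT1ami, MYC2 -0.57 and MED25 -0.29 for 24 h in the wild type for SGT1ami, MTB2 -0.24 for 3 h to 24 h in the wild type for SGT1ami, MTB3 -0.025 for 3 h in SGT1ami, MYC2 -0.49 and MED25 -0.27 for 24 h in the labelled SGT1ami libraries, MED25 0.083 for labelled SGT1ami against wild type at 24 h, MYC2 0.082 and MTB1 0.018 and MED25 0.022 for the SGT1ami difference of changes to 24 h, MTB1 0.26 for the wild types at 3 h, MED25 -0.13 for the wild types at 24 h, MYC2 0.17 and MED25 0.13 for the wild types' difference of changes to 3 h, MYC2 -0.076 and MTB3 -0.19 for the wild types' difference of changes to 24 h. TMM scaling turned it to COI1 -0.062 for 24 h in the wild type for SGT2ox, MED25 -0.0017 for SGT2ox against wild type at 24 h, MYC2 -0.016 for 24 h in the wild type for SGT1ami, MYC2 -0.0095 for 24 h in the labelled SGT1ami libraries, MYC2 0.0070 for the SGT1ami difference of changes to 24 h. The edgeR quasi-likelihood test on recovered reads turned it to MYC2 -0.018 for 24 h in the wild type for SGT1ami, MYC2 -0.0074 for 24 h in the labelled SGT1ami libraries, MYC2 0.011 for the SGT1ami difference of changes to 24 h, and DESeq2 on recovered reads to MED25 0.0013 for labelled SGT1ami against wild type at 24 h. Leaving out single libraries turned the sign of values that did not pass the test, over COI1 -0.0085 to 0.048 for 24 h in the wild type for SGT2ox, COI1 -0.043 to 0.014 for SGT2ox against wild type at 0 h, MED25 -0.016 to 0.047 for SGT2ox against wild type at 24 h, MED25 -0.052 to 0.012 for the SGT2ox difference of changes to 24 h, MTB2 -0.041 to 0.032 for 3 h to the labelled 24 h libraries of SGT1ami, MTB3 -0.019 to 0.039 for SGT1ami against wild type at 3 h, MED25 -0.027 to 0.0069 for labelled SGT1ami against wild type at 24 h, MYC2 -0.034 to 0.012 for the SGT1ami difference of changes to 24 h, MTB1 -0.059 to 0.052 for the wild types at 3 h. Counting error, reckoned as if reads were independent, was at or above the spread between libraries in 25 of the 72 gene and group pairs. Whether depth had a part in these turns of sign was not tested.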
